A study of Mus musculus with 12 samples.

Results

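The genes described here are the 3 intracellular lipases that take triglyceride apart step by step, Pnpla2, Lipe and Mgll, a co-activator and an inhibitor of the first of them, Abhd5 and G0s2, and the secreted hepatic lipase Lipc. They were chosen by name as enzymes and regulators of triglyceride lipolysis, with no measured value in the rule. They are 6 of the 14822 genes in the deposited table, and all 6 passed the filter on low values. The study sequenced polyadenylated RNA of whole livers, and its 12 libraries, all from C57BL6/J mice, form 3 groups of 4. In the FGF21 group, mice with diet-induced MASH (steatohepatitis linked to metabolic dysfunction, in which fat and inflammation build up in liver) received the hormone FGF21 at 1 mg per kg per day for 4 weeks. In the MASH vehicle group, mice on the same diet received saline for 4 weeks, and in the chow group, mice on chow received saline for 4 weeks. Neither the animals' age nor the composition of the diet is given in the sources used here, and all libraries share the strain and carry no stated mutation. The title of the series names brain and liver as the places where FGF21 acts, and the libraries are of liver. RNA was measured, not enzyme activity.

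Lipolysis of stored triglyceride runs in steps on the surface of the lipid droplet. Pnpla2 encodes adipose triglyceride lipase (ATGL), which removes the first fatty acid. Abhd5 (CGI-58) activates ATGL and G0s2 binds and inhibits it. Lipe encodes hormone-sensitive lipase, which acts mainly on diacylglycerol, and Mgll encodes monoglyceride lipase, which releases the last fatty acid and glycerol and also degrades the endocannabinoid 2-arachidonoylglycerol. Lipc is made by hepatocytes and works outside the cell, on triglyceride and phospholipid of circulating lipoproteins. In liver, ATGL feeds fatty acids to oxidation and to signalling through PPARα, and insulin and β-adrenergic signals set the pace of the pathway best known from fat tissue.

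Among these genes the largest differences were in Mgll, which was 2.52-fold higher in MASH vehicle than in chow and 2.77-fold higher in FGF21 than in chow. Abhd5 was also higher in MASH vehicle than in chow, and Pnpla2 and Lipc were higher in FGF21 than in chow. These 3 calls were lost under median-of-ratios scaling and when a trend with GC content was removed, while both calls of Mgll held. Between FGF21 and MASH vehicle, on the same diet, 1 of the 6 genes passed the test, Lipc, which was 1.37-fold higher in FGF21. Of all genes, 6.02% were called higher and 4.28% lower there. G0s2 and Lipe passed in none of the 3 comparisons. Fold changes were fitted in limma on log2(TPM + 1) over all 10988 genes tested, and called at a Benjamini-Hochberg adjusted p under 0.05. TPM is a level scaled for gene length and to a total of 1000000 per library.

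The promoters of 3 genes that passed are shown: Mgll and Abhd5, higher in MASH vehicle than in chow, and Lipc, higher in FGF21 than in MASH vehicle. Each runs from 250 bases before to 50 bases after a RefSeq start in build GRCm38.p6, 5′ to 3′ on the gene's own strand, and capitals mark matches to the motifs named after them. RefSeq gives a pair of starts for Mgll and for Lipc, and for each the start that holds matches is shown. These windows were thus picked for their matches, and the other windows of Mgll and Lipc held none. The Lipc window left out, chr9:70952172-70952471, is at the 5′ end of the gene, and the one shown lies inside the gene. Pnpla2, which passed between FGF21 and chow, is not shown. The windows shown are Mgll at chr6:88724162-88724461 on the forward strand, Lipc at chr9:70934759-70935058 on the reverse strand and Abhd5 at chr9:122351366-122351665 on the forward strand.
Mgll: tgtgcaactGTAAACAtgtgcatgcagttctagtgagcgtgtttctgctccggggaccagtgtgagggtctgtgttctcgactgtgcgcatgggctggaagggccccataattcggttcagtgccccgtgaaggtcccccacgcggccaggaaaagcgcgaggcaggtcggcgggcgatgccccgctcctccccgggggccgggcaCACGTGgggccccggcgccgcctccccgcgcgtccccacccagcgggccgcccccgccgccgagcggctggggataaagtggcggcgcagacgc
Lipc: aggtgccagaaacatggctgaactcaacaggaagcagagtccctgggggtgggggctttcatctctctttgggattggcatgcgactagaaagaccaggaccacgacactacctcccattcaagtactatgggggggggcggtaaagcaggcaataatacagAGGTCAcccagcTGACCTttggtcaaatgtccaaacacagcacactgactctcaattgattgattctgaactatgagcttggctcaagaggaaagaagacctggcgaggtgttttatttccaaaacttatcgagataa
Abhd5: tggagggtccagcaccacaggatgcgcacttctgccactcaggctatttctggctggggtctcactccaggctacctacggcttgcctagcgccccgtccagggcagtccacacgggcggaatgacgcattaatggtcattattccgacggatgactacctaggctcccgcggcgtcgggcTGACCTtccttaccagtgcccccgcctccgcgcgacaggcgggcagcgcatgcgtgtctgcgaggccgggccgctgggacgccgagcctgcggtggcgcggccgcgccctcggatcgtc
The motifs searched, on both strands, were TATAAA (the TATA box), AGGTCA (the core read by many nuclear receptors), AGGTCA repeated after 1 spacer base of any kind (the direct repeat read by PPAR with RXR, which contains the core), GTAAACA (read by FOXO factors) and CACGTG (the E-box). In the Mgll window GTAAACA starts 241 bases before the start and CACGTG 44 bases before it. In the Lipc window AGGTCA starts at 88 bases before the start and, on the other strand, at 76 bases before it, and in the Abhd5 window it starts at 69 bases before the start on the other strand. Among 32851 RefSeq promoters of the same length, AGGTCA is in 16.3%, TATAAA in 13.6%, CACGTG in 7.15%, GTAAACA in 3.65% and the direct repeat in 0.0396%. All 6 genes matched the RefSeq table, with 9 starts. Lipe held CACGTG at one start and GTAAACA at the other, the windows of Pnpla2 and G0s2 held none of the motifs, and TATAAA and the direct repeat were in none of the 9 windows. A match describes these letters and is not a binding site.

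The libraries bear on how the values can be read. Totals were 991794 to 999888 TPM in FGF21, 999842 to 999873 in MASH vehicle and 999873 to 999890 in chow. TPM keeps no depth, so the reads behind each value are unknown and the spread between libraries is the error given. FGF21 replicates 1 and 3 stood apart: they fell short of the full 1000000 TPM by 7968 and 8206, and the pancreas gene Cela1, the one gene of the muscle and pancreas list with a value, was at 428.5 and 578.3 TPM in them, against 28.8 and 43.2 TPM in FGF21 replicates 2 and 4. FGF21 replicate 4 fell short by 1217, and the remaining libraries by 109.5 to 157.6. Pearson's r between libraries of a group was 0.958 to 0.988 in FGF21, 0.989 to 0.992 in MASH vehicle and 0.983 to 0.994 in chow. Hepatocyte markers, the check of the tissue, summed to 99871 to 106004 TPM in FGF21, 88586 to 93410 TPM in MASH vehicle and 85797 to 107239 TPM in chow. Over all genes the median log2 fold change lay at −0.03 for FGF21 over MASH vehicle, 0.19 for MASH vehicle over chow and 0.20 for FGF21 over chow. Both shifts against chow belong beside each value below, and median-of-ratios scaling took them to −0.0034 and 0.014. Of the genes called between MASH vehicle and chow, 79.0% were higher (3242, with 861 lower), against 46.1% with that scaling (1643 higher, 1923 lower), and of those between FGF21 and chow 72.7% (4153 higher, 1560 lower), against 48.3% (2538 higher, 2714 lower).

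**Figure D1:**
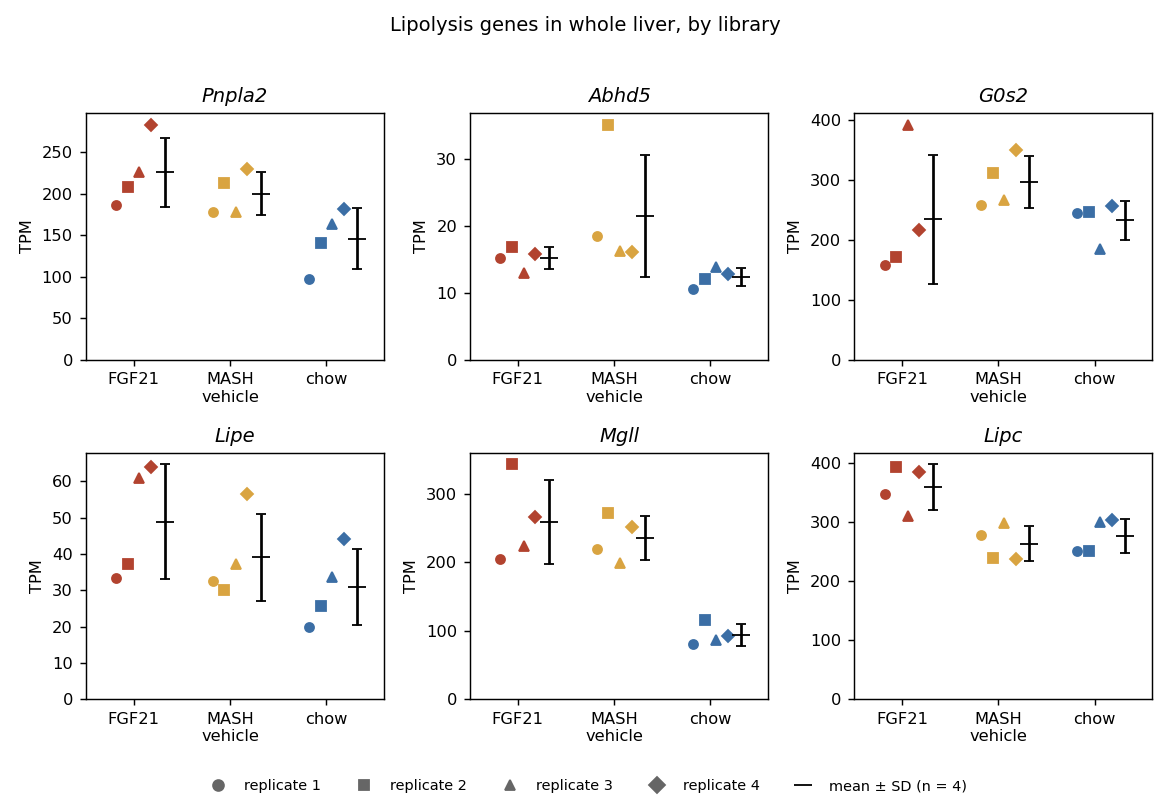
TPM of the 6 lipolysis genes in each of the 12 libraries, with FGF21, MASH vehicle and chow from left to right in each panel. Points are libraries and the line and bar are the mean ± SD of 4. The Mgll points of FGF21 and of MASH vehicle all lie above those of chow, and the Lipc points of FGF21 lie above those of both other groups.

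Pnpla2, the gene of the first lipase (chromosome 7, 141455198 to 141460743), had 185.8, 208.4, 225.9 and 282.5 TPM in FGF21 replicates 1 to 4, 178.0, 213.2, 177.9 and 229.8 TPM in MASH vehicle and 96.6, 140.8, 163.7 and 181.6 TPM in chow. The FGF21 libraries were all above the chow libraries, while MASH vehicle overlapped both other groups. The means were 226 ± 41.3 TPM in FGF21, 199.7 ± 26.0 TPM in MASH vehicle and 146 ± 36.7 TPM in chow (SD over n = 4 libraries, as in all means that follow). FGF21 over chow was 0.65 ± 0.184 on the log2 scale (SE, limma adjusted p = 0.0110). This call was lost with median-of-ratios scaling (0.43, adjusted p = 0.0603) and with the trend of fold change with GC content removed (0.16, adjusted p = 0.424), and the GC content of the Pnpla2 exons, 57.3%, is above that of 86.0% of the genes tested that have a value. MASH vehicle over chow was 0.48 ± 0.184 (95% interval 0.09 to 0.88) and missed the threshold (adjusted p = 0.0539). It passed without chow replicate 4 (0.60, adjusted p = 0.0273), without FGF21 replicate 1 (adjusted p = 0.0416) or 4 (adjusted p = 0.0370), and in a fit of those groups alone (adjusted p = 0.0435). FGF21 over MASH vehicle was 0.17 ± 0.184 (adjusted p = 0.605), with an interval of −0.23 to 0.56 that holds differences of either sign.

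Abhd5, the co-activator of ATGL (chromosome 9, 122351608 to 122381524), was the least abundant of the 6 genes on average in every group. It had 15.2, 16.8, 13.0 and 15.8 TPM in FGF21, 18.5, 35.0, 16.2 and 16.1 TPM in MASH vehicle and 10.6, 12.1, 13.8 and 12.8 TPM in chow. All MASH vehicle libraries lay above all chow libraries, and MASH vehicle replicate 2 was far above the other libraries of its group. The means were 15.2 ± 1.61 TPM in FGF21, 21.45 ± 9.10 TPM in MASH vehicle and 12.3 ± 1.35 TPM in chow. Abhd5 rose in MASH vehicle over chow by 0.68 ± 0.203 (limma adjusted p = 0.0191), and by 0.43 without MASH vehicle replicate 2 (adjusted p = 0.0295). The call was lost without chow replicate 1 (0.62, adjusted p = 0.0561), with quantile normalization (0.48, adjusted p = 0.0701), under median-of-ratios scaling (0.47, adjusted p = 0.0783) and with the GC trend removed (0.49, adjusted p = 0.0745). FGF21 over MASH vehicle was −0.40 ± 0.203 (adjusted p = 0.235) and FGF21 over chow 0.28 ± 0.203 (adjusted p = 0.256). The antisense gene A730085K08Rik shares 950 exon bases with Abhd5, and whether the counting used strand is not given in the sources used here, so their reads cannot be told apart.

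G0s2, the inhibitor of ATGL (chromosome 1, 193272161 to 193273217), had 157.0, 171.3, 391.2 and 216.6 TPM in FGF21, 257.4, 311.5, 266.5 and 349.7 TPM in MASH vehicle and 243.8, 245.7, 183.7 and 256.0 TPM in chow. FGF21 replicate 3 held the highest value of all 12 libraries and the other FGF21 libraries lay below every MASH vehicle library. The MASH vehicle libraries lay above all chow libraries. The means were 234 ± 108 TPM in FGF21, 296 ± 42.8 TPM in MASH vehicle and 232 ± 32.8 TPM in chow. FGF21 over MASH vehicle was −0.43 ± 0.233 (limma adjusted p = 0.272), and without FGF21 replicate 3 it was −0.71 (adjusted p = 0.0184). Without both FGF21 replicates 1 and 3, the libraries with high Cela1, it was −0.61 (adjusted p = 0.0205). MASH vehicle over chow was 0.35 ± 0.233 (adjusted p = 0.242, and 0.0453 in a fit of those groups alone) and FGF21 over chow −0.08 ± 0.233 (adjusted p = 0.802).

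Lipe, hormone-sensitive lipase (chromosome 7, 25379527 to 25398710), had 33.5, 37.3, 61.0 and 63.9 TPM in FGF21, 32.6, 30.0, 37.3 and 56.5 TPM in MASH vehicle and 20.0, 25.6, 33.7 and 44.0 TPM in chow. All 3 groups overlapped, and replicate 4 was the highest library of each. The means were 48.9 ± 15.7 TPM in FGF21, 39.1 ± 11.99 TPM in MASH vehicle and 30.8 ± 10.4 TPM in chow. FGF21 over MASH vehicle was 0.30 ± 0.271 (limma adjusted p = 0.518), MASH vehicle over chow 0.35 ± 0.271 (adjusted p = 0.317) and FGF21 over chow 0.65 ± 0.271 (adjusted p = 0.0575). FGF21 over chow passed without FGF21 replicate 1 (0.81, adjusted p = 0.0215), without chow replicate 4 (0.84, adjusted p = 0.0220) and without MASH vehicle replicate 4 (adjusted p = 0.0455). With a replicate block, a pairing that the labels do not state, it passed too (adjusted p = 0.00130), as did MASH vehicle over chow (adjusted p = 0.0373). The antisense gene 4732471J01Rik shares 918 exon bases with Lipe, with the same limit on strand.

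Mgll, monoglyceride lipase (chromosome 6, 88724412 to 88828360), had 205.3, 343.5, 223.7 and 266.6 TPM in FGF21, 220.4, 271.9, 198.8 and 252.4 TPM in MASH vehicle and 80.4, 116.1, 85.8 and 92.8 TPM in chow. Every library of both MASH diet groups was above every chow library, and both MASH diet groups overlapped each other. The means were 259.8 ± 61.4 TPM in FGF21, 236 ± 32.6 TPM in MASH vehicle and 93.8 ± 15.7 TPM in chow. Mgll rose in MASH vehicle over chow by 1.33 ± 0.166 (limma adjusted p = 7.34e-05) and in FGF21 over chow by 1.45 ± 0.166 (adjusted p = 6.79e-05). Both calls held in all 25 alternatives run, in which the differences ranged over 1.00 to 1.43 and over 0.97 to 1.70. FGF21 over MASH vehicle was 0.12 ± 0.166 (adjusted p = 0.690), with an interval of −0.24 to 0.48, and its sign turned without FGF21 replicate 2 (−0.023) and with the GC trend removed (−0.030). The antisense gene Gm26588 shares 167 exon bases with Mgll.

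Lipc, hepatic lipase (chromosome 9, 70798128 to 70952226), had 347.4, 393.0, 309.3 and 384.4 TPM in FGF21, 277.3, 239.2, 297.6 and 236.4 TPM in MASH vehicle and 249.7, 251.1, 299.6 and 302.8 TPM in chow. Every FGF21 library was above every library of both other groups, which overlapped each other. The means were 359 ± 38.3 TPM in FGF21, 263 ± 29.9 TPM in MASH vehicle and 276 ± 29.4 TPM in chow. Lipc rose in FGF21 over MASH vehicle by 0.45 ± 0.116 (limma adjusted p = 0.0289, 95% interval 0.20 to 0.70). The difference was 0.40 to 0.52 with single libraries left out, and the call was lost without FGF21 replicate 2 (adjusted p = 0.0869) or 4 (0.0618), without MASH vehicle replicate 1 (0.0545), 2 (0.0761) or 4 (0.0843), and in a fit of those groups alone (0.0617). Without FGF21 replicates 1 and 3 together the difference was 0.57 (adjusted p = 0.00845). Lipc also rose in FGF21 over chow by 0.38 ± 0.116 (adjusted p = 0.0166). That difference was 0.15 under median-of-ratios scaling (adjusted p = 0.300), 0.17 with the GC trend removed (0.270) and 0.24 when the total excluded major urinary protein and mitochondrially encoded genes (0.0886). It also missed the threshold without FGF21 replicate 2 (0.33, adjusted p = 0.0547), chow replicate 1 (0.33, 0.0520) or chow replicate 2 (0.33, 0.0512). MASH vehicle over chow was −0.07 ± 0.116 (adjusted p = 0.646).

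**Figure D2:**
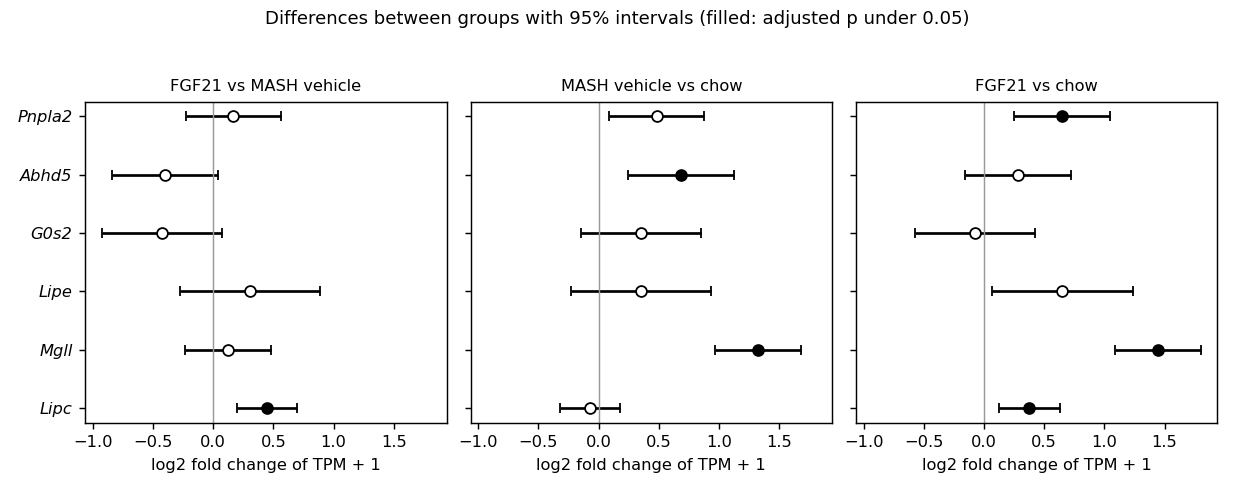
Log2 fold change of the 6 genes on the log2(TPM + 1) scale in the 3 comparisons, with 95% intervals from limma and filled points where the adjusted p is under 0.05. Mgll stands at 1.33 and 1.45 over chow, and Lipc, at 0.45, is the filled point between FGF21 and MASH vehicle.

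The counts of the 6 genes are set beside the shares of all genes. Here and for the lists below, these shares are of calls at an adjusted p. No share of all genes at an unadjusted p was counted, so unadjusted counts have no share to stand beside. Between FGF21 and MASH vehicle, 1 of the 6 genes was called higher and 0 lower, where 6.02% of all genes were called higher and 4.28% lower. At an unadjusted p under 0.05 limma gave the same counts, 1 higher and 0 lower. On the MASH diet with vehicle, 2 of the 6 were called higher and 0 lower than on chow, against 29.5% and 7.84% of all genes, and 3 and 0 at an unadjusted p under 0.05. Between FGF21 and chow, 3 of the 6 were called higher and 0 lower, against 37.8% and 14.2%, and 4 and 0 unadjusted. Groups did not overlap for 1 gene between FGF21 and MASH vehicle (14.1% of all genes), for 3 between MASH vehicle and chow (42.6%) and for 3 between FGF21 and chow (36.5%). The share of the 6 genes called against chow is therefore near that of all genes. The median log2 fold change of the 6 was 0.14 for FGF21 over MASH vehicle, 0.42 for MASH vehicle over chow and 0.51 for FGF21 over chow, beside −0.03, 0.19 and 0.20 for all genes. The comparisons share libraries and are not independent of each other.

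**Figure D3:**
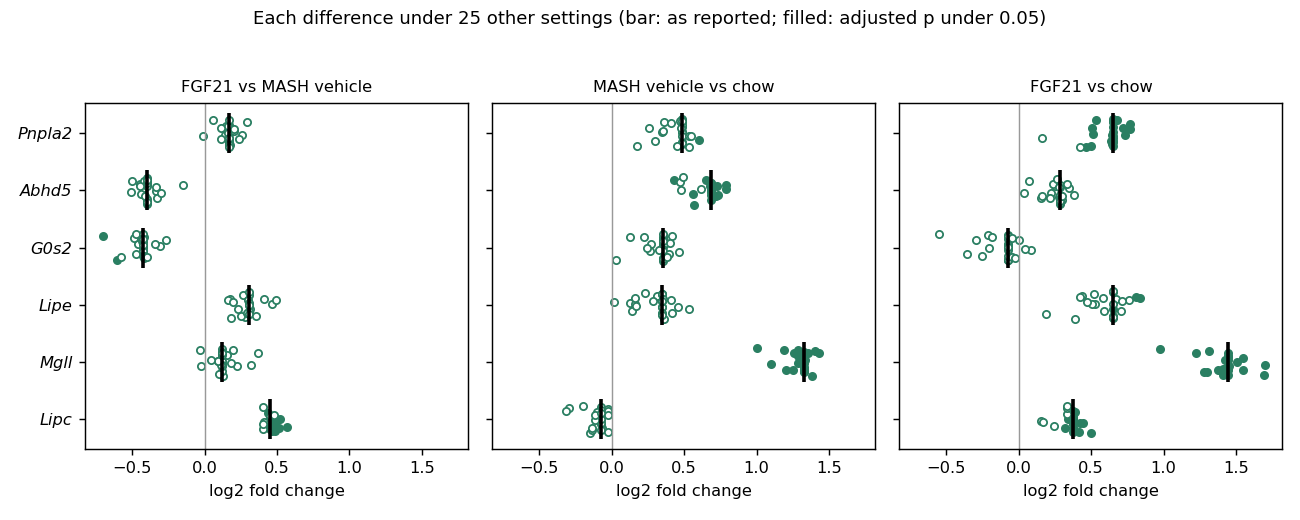
Log2 fold change of each gene in each comparison under 25 alternatives of processing and left-out libraries, as points, with the reported value as a bar and filled points where the adjusted p is under 0.05. The Mgll points over chow are all filled, from 0.97 to 1.70, while those of Lipc over MASH vehicle are filled in 19 of 25 alternatives.

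TPM is scaled for length, so levels can be set side by side between genes. In FGF21 the order of mean level was Lipc, Mgll, G0s2, Pnpla2, Lipe and Abhd5. In MASH vehicle it was G0s2, Lipc, Mgll, Pnpla2, Lipe and Abhd5, and in chow Lipc, G0s2, Pnpla2, Mgll, Lipe and Abhd5. By its mean, Mgll stood above Pnpla2 in FGF21 and MASH vehicle and below it in chow. Neighbours in the order whose library ranges did not overlap were Pnpla2 over Lipe and Lipe over Abhd5 in FGF21, Pnpla2 over Lipe in MASH vehicle, and G0s2 over Pnpla2, Mgll over Lipe and Lipe over Abhd5 in chow. The ranges of the other neighbours overlapped. Within single libraries, though, Lipc was above Mgll in 4 of 4 FGF21 libraries, Mgll above Pnpla2 in 4 of 4 MASH vehicle libraries, and Lipc above G0s2 and Pnpla2 above Mgll in 4 of 4 chow libraries.

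Ratios taken within a library do not depend on a single scaling factor of that library. They do not remove a trend with GC content. Exon GC content was 57.3% in Pnpla2, 56.4% in G0s2, 56.4% in Mgll, 55.8% in Lipe and 48.8% in Abhd5. Mgll to Pnpla2, the gene of the last lipase over that of the first, was 1.105, 1.65, 0.990 and 0.944 in FGF21, 1.24, 1.28, 1.12 and 1.098 in MASH vehicle and 0.832, 0.825, 0.524 and 0.511 in chow. Every library on the MASH diet was above every chow library. The ratio was 1.80-fold higher in MASH vehicle than in chow and 1.74-fold higher in FGF21 than in chow. Each gave an exact permutation p of 0.0286, two-sided, the smallest that 4 libraries against 4 allow, and 0.214 after adjustment over the 15 comparisons of ratios, which did not pass. G0s2 to Pnpla2, the inhibitor over its target, was 0.845, 0.822, 1.73 and 0.767 in FGF21, 1.45, 1.46, 1.498 and 1.52 in MASH vehicle and 2.52, 1.75, 1.12 and 1.41 in chow. In MASH vehicle the ratio was nearly the same in each library (1.48 ± 0.0345), in FGF21 replicate 3 it was above that and in the other FGF21 libraries below it. The log2 difference of FGF21 from MASH vehicle was −0.60 (exact permutation p = 0.143, adjusted p = 0.357). The ratios Abhd5 to Pnpla2, G0s2 to Abhd5 and Lipe to Pnpla2 did not pass in any comparison, with means of 0.0690, 16.1 and 0.214 in FGF21, 0.107, 15.2 and 0.195 in MASH vehicle and 0.0876, 19.2 and 0.209 in chow.

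**Figure D4:**
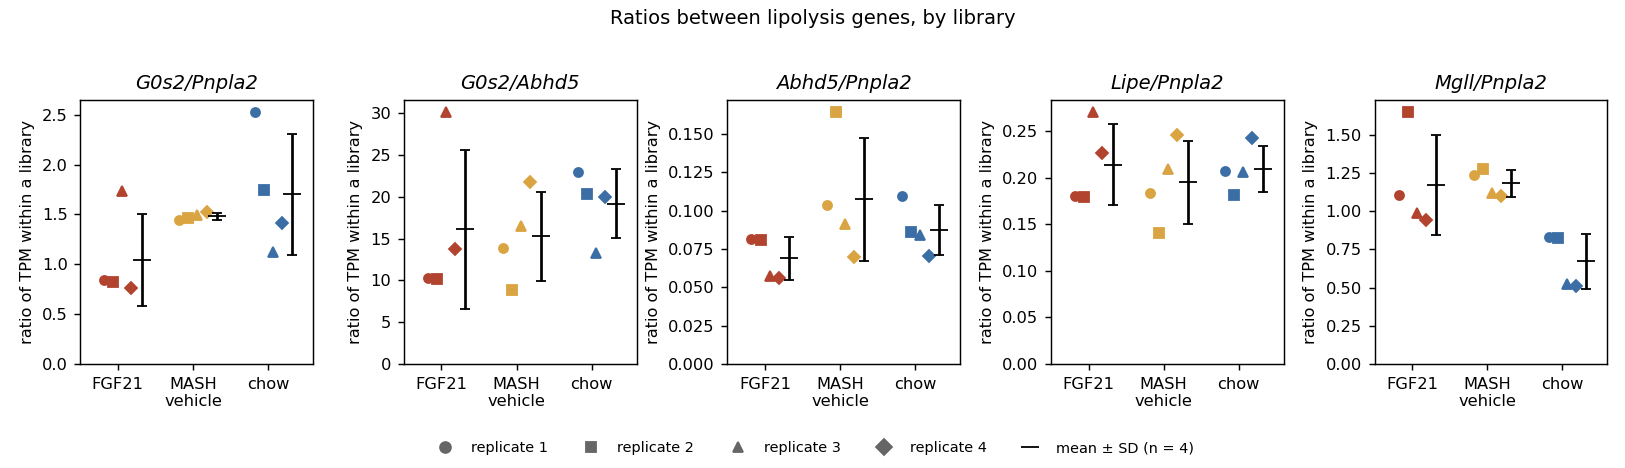
Ratios of TPM between pairs of the lipolysis genes within each library, on linear axes, with FGF21, MASH vehicle and chow from left to right. Mgll to Pnpla2 is above the chow libraries in all 8 libraries on the MASH diet, and G0s2 to Pnpla2 in FGF21 replicate 3 (1.73) lies apart from the other FGF21 libraries (0.767 to 0.845).

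The 3 intracellular lipases together, Pnpla2, Lipe and Mgll, summed to 424.6, 589.2, 510.6 and 613.0 TPM in FGF21, 431.0, 515.1, 414.0 and 538.7 TPM in MASH vehicle and 197.0, 282.5, 283.2 and 318.4 TPM in chow. The sum was 1.76-fold higher in MASH vehicle than in chow and 1.98-fold higher in FGF21 than in chow, with no overlap (exact permutation p = 0.0286 each, adjusted p = 0.0429 over 3 comparisons). That p is the smallest that 4 libraries against 4 allow, and 42.6% and 36.5% of all genes did not overlap in these comparisons. Means in chow, MASH vehicle and FGF21 were 93.8, 236 and 259.8 TPM for Mgll, 146, 199.7 and 226 TPM for Pnpla2, and 30.8, 39.1 and 48.9 TPM for Lipe. FGF21 and MASH vehicle overlapped (exact permutation p = 0.343). Mgll made up 48.5% of the sum in FGF21, 49.7% in MASH vehicle and 35.3% in chow, Pnpla2 42.4%, 42.1% and 53.4%, and Lipe 9.15%, 8.22% and 11.2%.

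The proteins on the lipid droplet set how far ATGL and Abhd5 can reach the triglyceride. The list of 14 genes tested holds such proteins and others around them, such as Fabp4 (Plin1 was not analysed here). Of these 14, 0 were called higher and 5 lower in FGF21 than in MASH vehicle, beside 6.02% and 4.28% of all genes. At an unadjusted p under 0.05 in limma, none of the list were higher and 8 lower, with no share of all genes counted at that threshold. The 5 were Cidea, Cidec, Hilpda, Fabp4 and Plin3. Without FGF21 replicates 1 and 3 the counts of the list were 2 higher and 6 lower, beside 1767 and 1222 of all 10988 genes tested. Between MASH vehicle and chow 11 of the list were higher and 0 lower (7 and 0 with median-of-ratios scaling), beside 29.5% and 7.84% of all genes. With that scaling 1643 of all 10988 genes tested were called higher and 1923 lower there, and 2538 and 2714 between FGF21 and chow. Of the list, 8 were higher and 0 lower between FGF21 and chow (6 and 1 with that scaling), beside 37.8% and 14.2%. Their median log2 fold changes were −0.34, 0.89 and 0.71, beside the medians of all genes above. Hilpda, which encodes another inhibitor of ATGL, had 3.6, 5.0, 3.7 and 3.2 TPM in FGF21, 6.3, 8.5, 7.1 and 5.9 TPM in MASH vehicle and 3.2, 3.3, 2.9 and 2.9 TPM in chow. The MASH vehicle libraries were above all others. Hilpda fell by 0.71 ± 0.134 in FGF21 over MASH vehicle (limma adjusted p = 0.00692) and rose by 0.95 ± 0.134 in MASH vehicle over chow (adjusted p = 0.000168), while FGF21 over chow was 0.25 ± 0.134 (adjusted p = 0.133).

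Cidec, a protein that fuses lipid droplets, averaged 106 ± 67.1 TPM in FGF21, 385 ± 60.2 TPM in MASH vehicle and 15.2 ± 10.4 TPM in chow. It fell by 2.09 ± 0.485 in FGF21 over MASH vehicle (limma adjusted p = 0.0171) and all FGF21 libraries lay below all MASH vehicle libraries. Plin2, the main droplet coat protein of liver, averaged 1099 ± 215 TPM in FGF21, 1525 ± 363 TPM in MASH vehicle and 625 ± 133 TPM in chow. Plin2 rose over chow in MASH vehicle (1.28, adjusted p = 0.000225) and in FGF21 (0.82, adjusted p = 0.00349), and FGF21 over MASH vehicle was −0.46 ± 0.186 (adjusted p = 0.134). Plin5, which holds ATGL and Abhd5 at the droplet, averaged 119 ± 34.0 TPM in FGF21, 88.9 ± 17.7 TPM in MASH vehicle and 58.6 ± 14.8 TPM in chow. It rose over chow in both (0.60, adjusted p = 0.0367 in MASH vehicle and 1.00, adjusted p = 0.00210 in FGF21), and FGF21 over MASH vehicle was 0.40 ± 0.208 (adjusted p = 0.25). Its call in MASH vehicle was lost under median-of-ratios scaling (0.38, adjusted p = 0.158), quantile normalization (0.41, 0.128) and the removed GC trend (0.32, 0.196), and without FGF21 replicates 1 and 3 it passed between FGF21 and MASH vehicle (0.67, 0.0473). Pnpla3, a lipase that competes for Abhd5, averaged 8.20 ± 4.91 TPM in FGF21, 8.93 ± 3.35 TPM in MASH vehicle and 3.55 ± 3.003 TPM in chow, and rose in MASH vehicle over chow (1.25 ± 0.431, adjusted p = 0.0371), a call lost under those 3 settings too (1.07, adjusted p = 0.0821, then 1.07, 0.0780 and 0.93, 0.173). Cidea, another droplet protein of the same family as Cidec, fell by 3.52 ± 0.655 in FGF21 over MASH vehicle (adjusted p = 0.00655), and Fabp4, a fatty acid carrier, by 1.18 ± 0.282 (adjusted p = 0.0192).

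**Figure D5:**
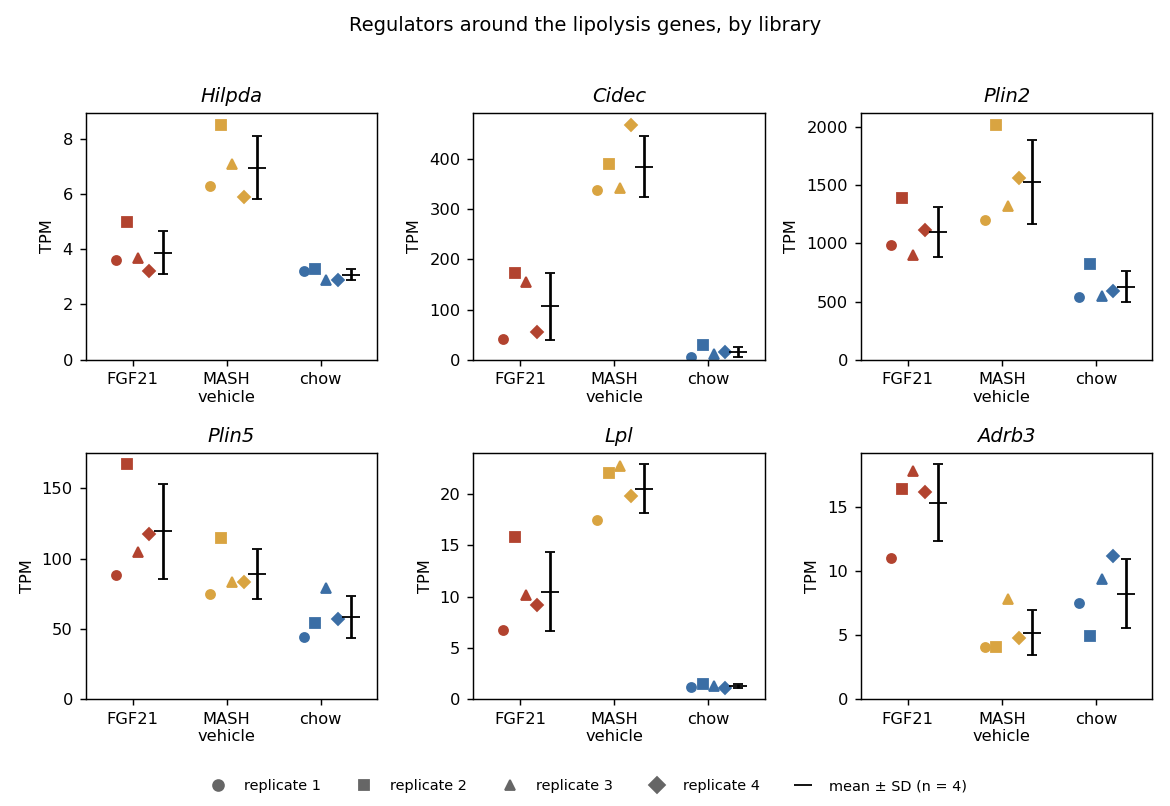
TPM by library of the ATGL inhibitor Hilpda, the droplet proteins Cidec, Plin2 and Plin5, lipoprotein lipase Lpl and the β3-adrenergic receptor Adrb3, with FGF21, MASH vehicle and chow from left to right and the mean ± SD of 4. Hilpda, Cidec and Lpl are lower in every FGF21 library than in every MASH vehicle library, and Adrb3 is higher.

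Other genes of the pathway were taken from lists by role. The 25 genes listed as other intracellular neutral lipid hydrolases also include enzymes of other lipids, such as Pnpla6, Pnpla8 and Acot2. Of these 25, 1 was higher (Pnpla6) and 3 were lower (Ces1g, Pnpla8 and Ces2c) in FGF21 than in MASH vehicle. The median was −0.18, and of all genes 6.02% were called higher and 4.28% lower. Without FGF21 replicates 1 and 3, 3 of the list were higher and 6 lower, beside 1767 and 1222 of all 10988 genes tested. Pnpla8, a phospholipase, fell by 0.53 ± 0.124 (limma adjusted p = 0.0176) and its call was lost with the GC trend removed (−0.38, adjusted p = 0.0932). Ces1g, a liver carboxylesterase, averaged 36.6 ± 5.75 TPM in FGF21, 64.9 ± 14.1 TPM in MASH vehicle and 86.7 ± 8.43 TPM in chow. Lipa, the lysosomal acid lipase, averaged 56.1 TPM in FGF21, 82.8 TPM in MASH vehicle and 73.7 TPM in chow, and did not pass between FGF21 and MASH vehicle (−0.59 ± 0.200, limma adjusted p = 0.0801), but did without FGF21 replicates 1 and 3 (−0.79, adjusted p = 0.0186). FGF21 over chow was −0.40 ± 0.200 (adjusted p = 0.109), and passed without those libraries (−0.60, adjusted p = 0.0292), under median-of-ratios scaling (−0.62, 0.0229) and under quantile normalization (−0.63, 0.0297). Between MASH vehicle and chow 12 of the 25 were higher and 2 lower (median 0.24), beside 29.5% and 7.84% of all genes. Between FGF21 and chow 13 were higher and 3 lower (median 0.27), beside 37.8% and 14.2%. Abhd6, a monoacylglycerol lipase like Mgll, averaged 17.8 ± 2.49 TPM in FGF21, 21.05 ± 1.28 TPM in MASH vehicle and 9.35 ± 1.097 TPM in chow, and rose by 1.096 ± 0.123 in MASH vehicle over chow (adjusted p = 3.12e-05). Acot2, a mitochondrial acyl-CoA thioesterase, rose there by 1.90 ± 0.220 (adjusted p = 4.27e-05). With median-of-ratios scaling the list gave 8 higher and 3 lower in MASH vehicle over chow, beside 1643 and 1923 of all 10988 genes tested. In FGF21 over chow it gave 7 and 6, beside 2538 and 2714.

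Among 14 secreted and endothelial lipases and their regulators, 2 were higher in FGF21 than in MASH vehicle (Apoa5 and Lmf2) and 3 lower (Lpl, Apoa4 and Apoc2). The median was −0.08, and of all genes 6.02% were called higher and 4.28% lower. In MASH vehicle 5 of the list were higher and 2 lower than in chow (median 0.29), beside 29.5% and 7.84% of all genes. Under median-of-ratios scaling the counts of the list were 4 and 3, beside 1643 and 1923 of all 10988 genes tested. Lpl, lipoprotein lipase, had 6.7, 15.8, 10.2 and 9.2 TPM in FGF21, 17.5, 22.1, 22.7 and 19.8 TPM in MASH vehicle and 1.2, 1.5, 1.3 and 1.1 TPM in chow. The 3 groups did not overlap. Lpl fell by 0.96 ± 0.189 in FGF21 over MASH vehicle (limma adjusted p = 0.00858) while Lipc rose, and Apoa5, an activator of Lpl, averaged 2737 ± 780 TPM in FGF21 and 1587 ± 69.3 TPM in MASH vehicle (0.75 ± 0.159, adjusted p = 0.0123). Apoa4, an apolipoprotein of triglyceride-rich particles, averaged 4673 ± 1428 TPM in FGF21, 11595 ± 1538 TPM in MASH vehicle and 931 ± 526 TPM in chow, and fell by 1.36 ± 0.300 in FGF21 over MASH vehicle (adjusted p = 0.0143). Macrophages also express Lpl. Of 10 macrophage markers 0 were higher and 5 lower in FGF21 than in MASH vehicle, beside 6.02% and 4.28% of all genes. These markers gave 0 and 7 at an unadjusted p under 0.05, with no share of all genes counted at that threshold. Without FGF21 replicates 1 and 3 they gave 2 and 6, beside 1767 and 1222 of all 10988 genes tested. All 10 were higher in MASH vehicle than in chow, beside 29.5% of all genes. The markers summed to 274 to 432 TPM in FGF21, 376 to 467 TPM in MASH vehicle and 95.6 to 116 TPM in chow, and their part in the result for Lpl was not tested.

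Of 22 genes of cAMP and insulin signalling, which switch lipolysis on and off, 5 were higher in FGF21 than in MASH vehicle (Adrb3, Irs2, Pde4b, Akt2 and Npr2) and 2 lower (Pde4d and Adora1). The median was 0.24, and of all genes 6.02% were called higher and 4.28% lower. Without FGF21 replicates 1 and 3 limma called 7 of the list higher and 0 lower, beside 1767 and 1222 of all 10988 genes tested. At an unadjusted p under 0.05 the list gave 10 and 4 there, with no share of all genes counted at that threshold. Adrb3, the β3-adrenergic receptor, had 11.0, 16.4, 17.8 and 16.2 TPM in FGF21, 4.1, 4.1, 7.8 and 4.8 TPM in MASH vehicle and 7.5, 4.9, 9.4 and 11.2 TPM in chow. All FGF21 libraries lay above all MASH vehicle libraries, and the FGF21 and chow groups overlapped. Adrb3 rose by 1.42 ± 0.234 in FGF21 over MASH vehicle (limma adjusted p = 0.00375) and by 0.85 ± 0.234 in FGF21 over chow (adjusted p = 0.00954), the second lost with the GC trend removed (0.37, 0.208) and under quantile normalization (0.62, 0.0560). MASH vehicle over chow was −0.57 ± 0.234 (adjusted p = 0.0719), and passed as lower under median-of-ratios scaling (−0.76, 0.0279), quantile normalization (−0.77, 0.0298) and the removed GC trend (−0.88, 0.0113). Irs2, an adaptor of the insulin receptor, averaged 10.4 ± 2.50 TPM in FGF21, 5.53 ± 0.854 TPM in MASH vehicle and 5.28 ± 0.613 TPM in chow, and rose by 0.79 ± 0.166 in FGF21 over MASH vehicle (adjusted p = 0.0118). In MASH vehicle 7 of the list were higher and 2 lower than in chow, beside 29.5% and 7.84% of all genes. The median was 0.17, beside 0.19 for all genes. With median-of-ratios scaling the counts of the list were 3 and 6, beside 1643 and 1923 of all 10988 genes tested. Gnas and Gnai2, the stimulatory and an inhibitory G protein subunit of the cAMP pathway, rose in MASH vehicle over chow by 0.79 ± 0.0984 (adjusted p = 6.66e-05) and 0.88 ± 0.126 (adjusted p = 0.000198).

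Of 15 transcription factors and co-regulators named for lipolysis genes, 3 were higher in FGF21 than in MASH vehicle (Mlxipl, Rxra and Nr1d1) and 1 was lower (Pparg). The median was 0.06, and of all genes 6.02% were called higher and 4.28% lower. Pparg, which drives Pnpla2 and Lipe in fat tissue, averaged 3.33 ± 0.846 TPM in FGF21, 8.35 ± 2.74 TPM in MASH vehicle and 4.65 ± 1.19 TPM in chow. It fell by 1.09 ± 0.212 in FGF21 over MASH vehicle (limma adjusted p = 0.00824) and rose by 0.71 ± 0.212 in MASH vehicle over chow (adjusted p = 0.0202), a call lost under median-of-ratios scaling (0.51, adjusted p = 0.0859) and quantile normalization (0.52, adjusted p = 0.0889). Mlxipl (ChREBP), a glucose-responsive factor, averaged 717 ± 218 TPM in FGF21, 389 ± 34.3 TPM in MASH vehicle and 354 ± 36.3 TPM in chow, and rose by 0.83 ± 0.183 in FGF21 over MASH vehicle (adjusted p = 0.0141). In MASH vehicle 3 of the list were higher and 1 lower than in chow (median 0.12), beside 29.5% and 7.84% of all genes. With median-of-ratios scaling the counts of the list were 0 and 5, beside 1643 and 1923 of all 10988 genes tested. Srebf1 rose there by 1.07 ± 0.3201 (adjusted p = 0.0192, against 0.85 and 0.0577 under that scaling) and Sirt1, a deacetylase, fell by 0.53 ± 0.140 (adjusted p = 0.0108, against −0.23 and 0.0850 with the GC trend removed). Of 6 genes of glycerol handling, none passed between FGF21 and MASH vehicle in limma, none at an unadjusted p under 0.05 either, and the median was −0.03. Pgp, a glycerol phosphate phosphatase, was higher in MASH vehicle than in chow by 0.71 ± 0.116 (adjusted p = 0.000515) and Gpd1, which makes glycerol phosphate, by 0.52 ± 0.141 (adjusted p = 0.0122, lost under median-of-ratios scaling with 0.29, adjusted p = 0.121).

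Fat tissue is rich in Pnpla2, Lipe, G0s2 and Mgll, so its markers were read beside them. Of 5 adipocyte markers tested, 1 was higher (Adrb3) and 3 lower in FGF21 than in MASH vehicle, beside 6.02% and 4.28% of all genes. In MASH vehicle 4 were higher and 0 lower relative to chow (4 and 1 at an unadjusted p under 0.05), beside 29.5% and 7.84%. The 7 markers in the table summed to 89.2 to 291 TPM in FGF21, 523 to 1011 TPM in MASH vehicle and 23.1 to 52.6 TPM in chow. Cidec, Fabp4 and Plin4 are in both this list and that of the droplet. The defining marker Adipoq was at 2.0, 0, 1.9 and 0 TPM in FGF21 replicates 1 to 4, at most 0.2 TPM in MASH vehicle and at most 0.2 TPM in chow, and Retn was at most 1.2 TPM in any library. Both FGF21 libraries with Adipoq above 1 TPM are those with high Cela1, and G0s2 was at 157.0 TPM in one of them and 391.2 TPM in the other. Of 10 endothelial markers, 6 were higher in MASH vehicle than in chow (4 with the GC trend removed), and of 9 stellate cell markers 7 were higher (4 under median-of-ratios scaling), beside 29.5% of all genes. Of all 10988 genes tested, 1507 were called higher there with the GC trend removed and 1643 under median-of-ratios scaling. Of 10 hepatocyte markers 0 were higher and 5 lower in that comparison, with the same counts at an unadjusted p under 0.05, beside 7.84% of all genes called lower. In FGF21 over chow 3 were higher and 5 lower, beside 37.8% and 14.2% of all genes. In bulk RNA fewer cells of a type and less RNA per cell cannot be told apart. The part of these cells in the results for the 6 lipolysis genes was not tested.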

How the data were processed

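Polyadenylated RNA of whole mouse liver was measured in 12 libraries. Per the labels' protocols, RNA came from a Qiagen RNeasy kit with oligo-dT enrichment. Per the submitters' processing notes, the tools were Trim Galore 6.10 and Salmon 1.10.2 and the build was mm10. How transcripts were annotated, summed to genes and filtered is not given in the sources used here. Values deposited by the authors are TPM, rounded to 1 decimal: their sheet is named FPKM, but each column sums to just under 1000000, so the values were read as TPM. TPM keeps no depth, so no counting intervals or floors are given. Columns were matched to samples by library name, and 0 were unmatched.

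The 10988 genes that reached 1 TPM in 4 or more libraries were fitted as log2(TPM + 1) with limma 3.58.1 (R 4.3.3), 3 groups in one model, trend and robust options, two-sided, Benjamini-Hochberg over all genes at 0.05. A log2(TPM + 1) fold change understates the change of low genes. Ratios and sums were compared with exact permutation tests. The procedures were tested on simulated data. The labels do not say that libraries came from separate animals, so p-values measure only the spread among these libraries, part of which may be technical. Positions and exon GC content are from GENCODE M21, build GRCm38 (also called mm10), and promoters from RefSeq, GRCm38.p6. The design was written for FPKM and was used unchanged on TPM.

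The members and lists were chosen with earlier results of these data known. Named genes were all 6 members, and from each related list the 2 called genes with the smallest p in each of FGF21 against MASH vehicle and MASH vehicle against chow, plus Hilpda, Pnpla3, Lipa, Lpl, Plin2 and Plin5. Other list genes are named to say which were called, after their values were seen. Alternatives were pseudocounts of 0.1 and 5, no filter and a filter at 5, median-of-ratios scaling, quantile normalization, only the groups compared, array weights, no trend or robust options, a replicate block, a removed GC trend, a total without major urinary protein and mitochondrially encoded genes, and libraries left out.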

Additional observations from a re-analysis of the deposited data

Results flagged for a closer look

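In 111 groups of 4 libraries looked at, 6 held a library farther from the others than Dixon's 95% limit for 4 values, which chance passes in about 1 of 20 groups. Among the lipolysis genes, Abhd5 was at 35.0 TPM in MASH vehicle replicate 2, against 16.1 to 18.5 TPM in the other MASH vehicle libraries. G0s2 was at 183.7 TPM in chow replicate 3, against 243.8 to 256.0 TPM in the other chow libraries. The ratio of G0s2 to Pnpla2 was 1.73 in FGF21 replicate 3, against 0.767 to 0.845 in the other FGF21 libraries. Among the related genes, Srebf1, a factor that drives lipid synthesis, was at 152.7 TPM in FGF21 replicate 1, against 507.5 to 517.7 TPM in the other FGF21 libraries. Ces1g was at 74.2 TPM in chow replicate 1, against 89.3 to 92.1 TPM in the other chow libraries. Gpd1 was at 748.1 TPM in chow replicate 2, against 619.6 to 640.7 TPM in the other chow libraries.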

How the results depend on the processing

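Over the 6 genes, 3 comparisons and 25 alternatives, 413 of 450 values kept their direction and side of the threshold, 14 passed where the reported value did not, 18 no longer passed and 5 changed sign; the cause was not tested. In a fit of only the groups compared, 0 genes were called between FGF21 and MASH vehicle (Lipc at 0.45 was lost), and 4 between MASH vehicle and chow (Pnpla2 0.48 and G0s2 0.35 passed). Without FGF21 replicates 1 and 3, 2 were called between FGF21 and MASH vehicle (G0s2 −0.61), and Pnpla2 passed over chow in MASH vehicle (0.48). With median-of-ratios scaling Mgll alone was called, 1 of 6, between MASH vehicle and chow (Abhd5 at 0.47 was lost) and between FGF21 and chow (Pnpla2 at 0.43 and Lipc at 0.15 were lost). With quantile normalization Mgll was the 1 gene called between MASH vehicle and chow (Abhd5 at 0.48 was lost). With the GC trend removed Mgll was the 1 gene called in each comparison with chow (Abhd5 at 0.49 in MASH vehicle and Pnpla2 at 0.16 and Lipc at 0.17 in FGF21 were lost), and Pnpla2 and Mgll turned to −0.011 and −0.030 between FGF21 and MASH vehicle. Lipc over chow in FGF21 (0.24) was lost without major urinary protein and mitochondrially encoded genes.

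With single libraries left out, 0 to 2 genes were called between FGF21 and MASH vehicle, 1 to 3 between MASH vehicle and chow and 2 to 4 between FGF21 and chow. Between FGF21 and MASH vehicle the values ranged over 0.40 to 0.52 for Lipc, −0.71 to −0.27 for G0s2 and −0.023 to 0.22 for Mgll, negative without FGF21 replicate 2 (−0.023). Between MASH vehicle and chow they ranged over 0.30 to 0.60 for Pnpla2 and 0.43 to 0.79 for Abhd5. Between FGF21 and chow they ranged over 0.33 to 0.45 for Lipc, 0.47 to 0.84 for Lipe and −0.35 to 0.082 for G0s2, positive without FGF21 replicate 1 (0.082) or 2 (0.041). The ratios and the sum were recomputed with a library left out as values, and no test was run on them. The summed lipases differed by 204 TPM between MASH vehicle and chow, and by 150 TPM with median-of-ratios scaling.

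The labels do not say that replicate numbers pair the samples. The numbers in the library names also differ between same-numbered replicates of the 3 groups, so a replicate block joins libraries that no label pairs. Deviations of same-numbered libraries of different groups had correlations of −0.18 to 0.41, 7 of 12 over 0.1. They were 0.26 to 0.34 for replicate 1 and 0.28 to 0.41 for replicate 4. Whether same-numbered libraries share a factor was not tested. With a replicate block, 4 genes were called between MASH vehicle and chow (Pnpla2 0.48, adjusted p = 0.00944, and Lipe 0.35, adjusted p = 0.0373) and 4 between FGF21 and chow (Lipe 0.65, adjusted p = 0.00130). A limma fit of the log2 ratios alone with that block called Abhd5 to Pnpla2 between FGF21 and MASH vehicle (−0.59). It also called Mgll to Pnpla2 over chow in MASH vehicle (0.85) and FGF21 (0.80). That fit is a different test from the exact permutation test reported above for ratios. In the permutation test these comparisons did not pass (adjusted p = 0.357, 0.214 and 0.214).

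Over all genes, counts of higher and lower calls moved by over 1.5 times in these settings. Between FGF21 and MASH vehicle (662 and 470) they were 348 and 283 in the fit of those groups alone, 1415 and 1054 with array weights, 1767 and 1222 without FGF21 replicates 1 and 3, and 286 to 1273 and 242 to 941 with single libraries left out. Between MASH vehicle and chow (3242 and 861) quantile normalization gave 1683 and 1986, the removed GC trend 1507 higher, array weights 1355 lower, and single libraries left out 494 to 1208 lower. Between FGF21 and chow (4153 and 1560) quantile normalization gave 2528 and 2628, the removed GC trend 1705 higher, the filter at 5 gave 1030 lower, and single libraries left out 950 to 2042 lower.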

Other observations

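For each of the 6 genes, the genes whose log2(TPM + 1) followed it most closely over the 12 libraries are given with Pearson's r, as a description over 10751 genes compared. The 12 libraries fall into 3 groups and share their scaling and base composition, so an r mixes differences between groups with those between libraries. Mgll had the closest companions: Atp9a (0.988), Slc16a13 (0.984) and Crat (0.984), with Ropn1l at the other end (−0.967). Lipe was followed by Dennd6b (0.968), Prr3 (0.958) and Tgm1 (0.930), with St7l at −0.930. Pnpla2 was followed by Plekha7 (0.961), Surf6 (0.959) and Lrp4 (0.952), with Nek1 at −0.925. Abhd5 was followed by Eaf1 (0.961), Pvr (0.919) and Sephs1 (0.913), with Macrod1 at −0.889. Lipc was followed by Itga2b (0.933), Carmil1 (0.909) and Tmprss6 (0.899), with Gstm2 at −0.931. G0s2 had the least close companions, Rpain (0.850), Ttc13 (0.838) and Cdpf1 (0.825), with Tlcd3a at −0.811. Among the 6 genes themselves r was 0.86 for Pnpla2 and Lipe, 0.76 for Pnpla2 and Mgll, and −0.61 for G0s2 and Lipc.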
